A study of Mus musculus with 12 samples.

Results

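A set of 9 interferon-stimulated genes was followed in adult mouse cardiomyocytes with and without desmin, the muscle intermediate filament protein encoded by Des. The 9 genes, Isg15, Ifit1, Ifit2, Ifit3, Irf7, Rsad2, Usp18, Oasl2 and Bst2, were taken by their symbols from the 21493 genes of the count tables, and each symbol was found once in all 12 tables. Poly-A RNA was sequenced from cells isolated enzymatically, with trypsin and collagenase D, from hearts of 3-month-old mice. The mice were Des+/+ or Des-/-, and either had performed swimming exercise (swim) or had not (non-swim), which gave 4 groups of 3 libraries. The Des+/+ groups carry desmin and the Des-/- groups lack it in every cell throughout life. The methods of the study state that cells of several mice were pooled for each library, so the spread between replicates is the spread between pools.

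Interferons are secreted proteins that bind receptors on the cell surface and, through the kinases Jak1 and Tyk2, activate transcription factors, Stat2 among them. Together with Irf9 these enter the nucleus and bind the interferon-stimulated response element (ISRE) in front of many genes, whose products hinder viruses or tune the response itself. Such genes are known to be expressed at a low basal level in many tissues, the heart included, and to rise together when cytosolic nucleic acid is sensed.

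The products of the 9 genes act at different points of the response. Irf7 is a transcription factor that drives the interferon genes. Ifit1, Ifit2 and Ifit3 are tetratricopeptide-repeat proteins, of which Ifit1 binds foreign RNA, and Oasl2 belongs to the oligoadenylate synthetase family. Rsad2 (viperin) makes an altered nucleotide that stops viral polymerases, and Bst2 (tetherin) holds budding virus at the cell membrane. Isg15 is a ubiquitin-like protein that is attached to other proteins, and Usp18 removes it and also dampens signalling at the receptor.

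Positions are given in mouse genome build GRCm38 with GENCODE M21 gene models. The 3 Ifit genes lie in 1 cluster on the plus strand of chromosome 19, Ifit2 at 34550694 to 34576419, Ifit3 at 34583531 to 34588731 and Ifit1 at 34640871 to 34650009. Isg15 lies on the minus strand of chromosome 4 (156199424 to 156200818), Irf7 on the minus strand of chromosome 7 (141262706 to 141266481) and Rsad2 on the minus strand of chromosome 12 (26442746 to 26456452). Usp18 lies on the plus strand of chromosome 6 (121245906 to 121270917), Oasl2 on the plus strand of chromosome 5 (114896936 to 114912234) and Bst2 on the minus strand of chromosome 8 (71534255 to 71537456). All 9 are protein-coding. Exons of Irf7 overlap those of Phrf1 on the other strand, and exons of Usp18 overlap the non-coding gene Gm44148 on the other strand. Of the 100-base windows of Ifit3 messenger RNA, 31.65% also occurred in its neighbour Ifit3b, and 3.29% of those of Ifit1 occurred in Ifit1bl2. Counts of Ifit3 and Ifit3b are therefore less certain than those of the other genes, because a read from a shared stretch cannot be placed uniquely.

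Promoter sequences from RefSeq (build GRCm38.p6, 250 bases before to 50 after the annotated start) were found for 8 of the 9 genes and not for Usp18. They are shown because the ISRE is the sequence through which the 9 genes are known to be grouped. The ISRE core, a 10-base pattern of which 8 bases are fixed, was searched on both strands. It was present in the promoters of 5 of these 8 genes, and in those of 1079 of 27025 genes (3.99%). It occurred 3 times in Isg15 and 2 times in Bst2, in overlapping copies, 2 times each in Ifit1 and Ifit3, and 1 time in Rsad2. The matches, read in the direction of the core, were GAAACTGAAA in Ifit1, Ifit3 and Bst2, GAAAGTGAAA in Ifit1 and Ifit3, and GAAAATGAAA in Rsad2 and Bst2, and those in Isg15 were GAAAAGGAAA, GAAACCGAAA and GAAACAGAAA. No match was found in this window of Irf7 and Oasl2, or at either of the 2 annotated starts of Ifit2. Sequence farther from these starts was not searched. The bases from 160 to 51 before the start are given below, 5′ to 3′ on the strand of the gene, with matches to the ISRE core on either strand in capitals. The stretches are chr4:156200869-156200978 (minus strand) for Isg15, chr19:34640729-34640838 (plus) for Ifit1, chr19:34583369-34583478 (plus) for Ifit3, chr12:26456503-26456612 (minus) for Rsad2 and chr8:71537523-71537632 (minus) for Bst2.
Isg15: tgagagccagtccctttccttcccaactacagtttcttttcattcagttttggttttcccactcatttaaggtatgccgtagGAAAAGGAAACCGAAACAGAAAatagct
Ifit1: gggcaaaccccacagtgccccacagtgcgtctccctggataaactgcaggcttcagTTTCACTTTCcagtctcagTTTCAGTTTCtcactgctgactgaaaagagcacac
Ifit3: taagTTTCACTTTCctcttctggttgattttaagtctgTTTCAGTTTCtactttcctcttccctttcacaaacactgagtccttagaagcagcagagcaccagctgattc
Rsad2: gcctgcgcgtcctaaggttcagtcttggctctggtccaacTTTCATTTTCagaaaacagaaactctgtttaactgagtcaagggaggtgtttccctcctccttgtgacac
Bst2: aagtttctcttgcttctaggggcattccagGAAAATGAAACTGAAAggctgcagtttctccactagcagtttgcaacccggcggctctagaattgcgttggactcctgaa

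Reads assigned to genes numbered 7425291 to 12072443 in the Des+/+ libraries, 8058801 to 11206142 in the Des-/- non-swim libraries and 4320819 to 6521963 in the Des-/- swim libraries. Levels are given as CPM, counts relative to the library size after TMM scaling, the trimmed mean of M-values normalisation of edgeR. Des itself stood at 973 to 3647 CPM in the Des+/+ libraries and at 50.3 to 101 CPM in the Des-/- libraries, without overlap. The labelled cell type was checked with 10 cardiomyocyte markers, which summed to 28275 CPM or more in each Des+/+ library and to 5963 to 25200 CPM in the Des-/- libraries. Summed levels of 14 macrophage markers were 264 to 393 CPM in the Des+/+ libraries. In Des-/- they were 478, 771 and 4649 CPM without swimming and 291, 384 and 1478 CPM after it, and replicate 3 held the highest value in both. In bulk RNA, fewer cells of a type and less RNA per cell cannot be told apart.

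All 9 genes were expressed in every library. Per length, as RPKM over the merged exons, Bst2 had the highest level in the Des+/+ non-swim group, at 62.7 ± 19.2 RPKM (SD, n = 3), followed by Isg15 at 15.5 ± 8.66 RPKM. Usp18 had the lowest, at 3.24 ± 1.22 RPKM. The merged exons of Irf7 form 1 block of 3776 bases over its whole span. Its 10.1 ± 2.18 RPKM may therefore be too low, and its rank below Isg15 is uncertain. Bst2 also had the highest RPKM mean in each of the other groups. The mean level of each of the 9 genes was lowest in the Des+/+ non-swim group. The lowest single library was replicate 2 of that group for 7 genes and replicate 3 for Ifit1 and Ifit3, whereas the highest was replicate 3 of the Des-/- non-swim group for 5 genes. Together the 9 genes summed to 209, 240 and 350 CPM in the Des+/+ non-swim libraries, and to between 351 and 599 CPM in the other 9 libraries.

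**Figure D1:**
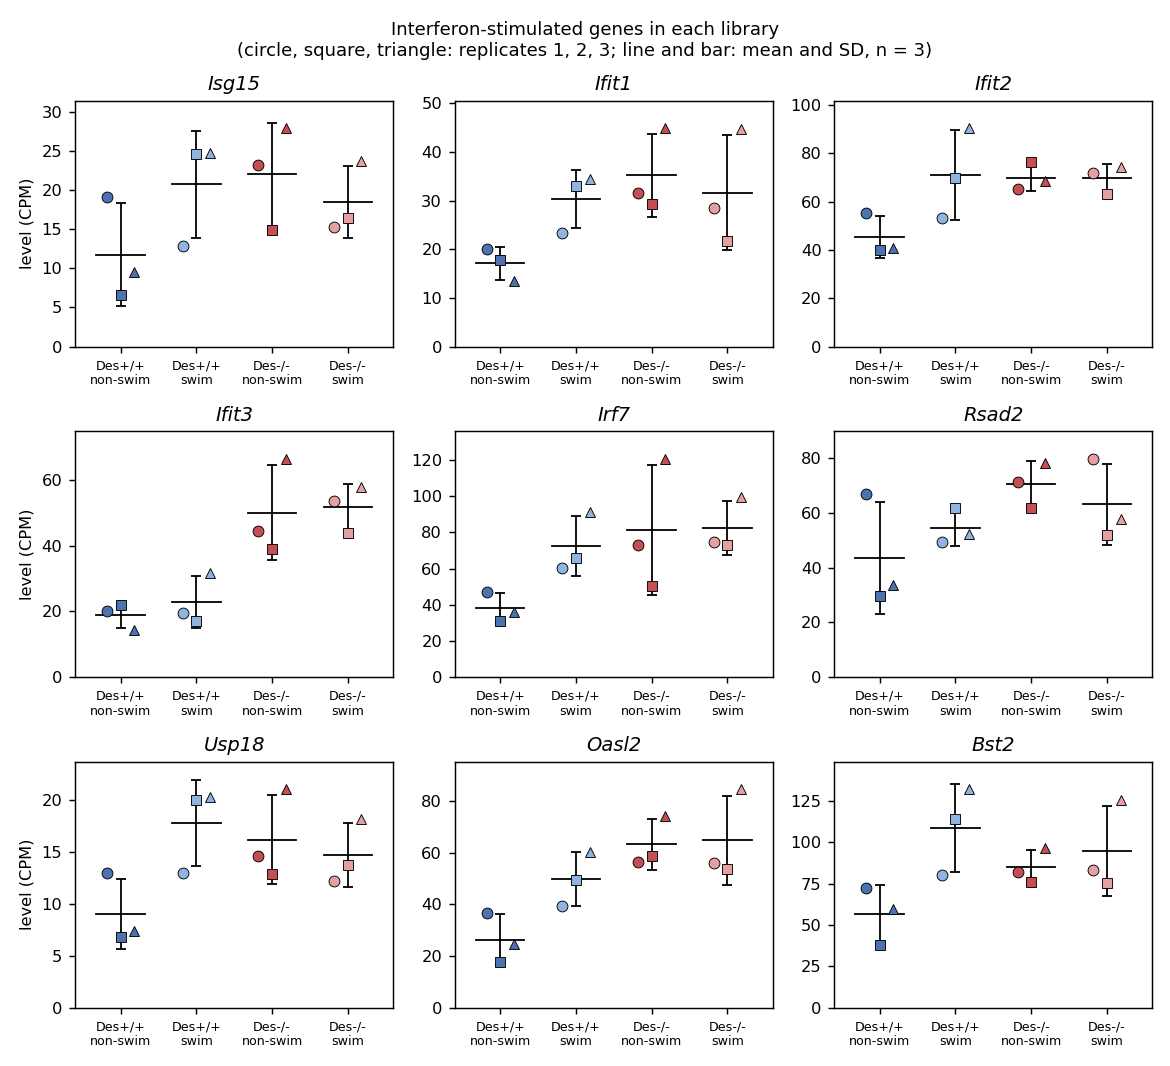
Level of each of the 9 genes, in CPM on a linear axis from 0, in the 3 libraries of each group; the horizontal line is the mean and the bar the SD (n = 3). The Des+/+ non-swim group has the lowest mean in all 9 panels, and for Ifit3 all 6 Des+/+ libraries lie below all 6 Des-/- libraries.

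The effect of desmin loss in mice that had not swum was examined first. All 9 genes had a higher mean in Des-/- than in Des+/+ cardiomyocytes, and 5 of them, Ifit3, Oasl2, Irf7, Ifit1 and Ifit2, rose at an adjusted p under 0.05 (edgeR quasi-likelihood test, adjusted over 13158 genes). This can be read against 32% of all genes tested called in this comparison, and 14% called as higher. The median log2 change of the 9 genes was 0.91, beside 0.04 for all genes tested. For 6 of the 9 genes the Des-/- libraries all lay above the Des+/+ libraries, and 23% of all genes tested did so.

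Ifit3, an antiviral partner of Ifit1, had the highest rise. Its level was 20.04, 21.9 and 14.4 CPM in replicates 1, 2 and 3 of Des+/+ and 44.5, 39.1 and 66.5 CPM in those of Des-/-. The groups did not overlap, and the log2 change was 1.42 (SE 0.27, edgeR adjusted p = 0.00305). Oasl2 measured 36.9, 17.6 and 24.6 CPM in Des+/+ against 56.5, 58.8 and 74.4 CPM in Des-/-, again without overlap. Its log2 change was 1.26 (SE 0.27, edgeR adjusted p = 0.00565).

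Ifit1, the sensor of foreign RNA ends, was at 20.04, 17.9 and 13.4 CPM in Des+/+ and at 31.5, 29.2 and 44.9 CPM in Des-/-. The lowest Des-/- library stood above the highest Des+/+ library, and the log2 change was 1.04 (SE 0.28, edgeR adjusted p = 0.0154). Ifit2 went from 55.2, 40.0 and 40.9 CPM to 65.2, 76.2 and 68.4 CPM, also without overlap. Its log2 change was the smallest of the 5 genes called, 0.63 (SE 0.19, edgeR adjusted p = 0.0273).

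Irf7, which drives the interferon genes, was at 47.0, 30.9 and 36.3 CPM in Des+/+ and at 73.2, 50.4 and 121 CPM in Des-/-. The groups did not overlap, although replicate 3 of Des-/- stood far above the other pair, and the log2 change was 1.10 (SE 0.30, edgeR adjusted p = 0.0160).

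The other 4 genes were not called. Usp18 measured 13.0, 6.78 and 7.40 CPM in Des+/+ and 14.7, 12.9 and 21.1 CPM in Des-/-, and its log2 difference of 0.85 (95% interval 0.19 to 1.51) had an edgeR adjusted p of 0.0511. For Rsad2, replicate 1 of Des+/+ (66.8 CPM) reached the Des-/- range of 61.8 to 78.4 CPM, while the other Des+/+ libraries were at 29.8 and 33.7 CPM. Isg15 showed the same order, with 19.1 CPM in replicate 1 of Des+/+, 6.54 and 9.56 CPM in the others, and 23.2, 14.9 and 27.9 CPM in Des-/-. These genes are the viral polymerase inhibitor and the ubiquitin-like modifier, and their log2 differences of 0.70 and 0.91 had edgeR adjusted p of 0.0706 and 0.0970. Bst2 had log2 0.58 (edgeR adjusted p = 0.114), although its libraries did not overlap (38.1 to 72.4 CPM against 76.2 to 96.4 CPM). All 9 genes had an unadjusted p under 0.05, as did 43.7% of all genes tested.

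The number called depended on single libraries. With replicate 3 of Des-/- non-swim left out, the library with 4649 CPM of macrophage markers, Ifit3 (log2 1.16, edgeR adjusted p = 0.00846) and Oasl2 (log2 1.13, edgeR adjusted p = 0.0170) kept their calls. Ifit1, Irf7 and Ifit2 then had log2 changes of 0.83, 0.71 and 0.64 and edgeR adjusted p of 0.0551, 0.0596 and 0.0501, so 2 of the 9 genes were called, beside 21.1% of all genes. Without replicates 1, 2 or 3 of the Des+/+ non-swim group the count was 8, 3 or 2, beside 25.5%, 19.5% or 21.9% of all genes called in those fits. Of the 14 macrophage markers 11 rose in the same comparison, none of them at 0 in any group as a whole. The 10 cardiomyocyte markers all fell. Of all genes tested, 14% rose and 18% fell. Some uniquely aligned reads overlapped no exon on the counted strand, a class that includes reads in introns. Their share was 52.3%, 49.0% and 34.2% in replicates 1, 2 and 3 of Des-/-, and 34.0% to 39.3% in Des+/+. The part of these shifts in the levels of the 9 genes was not tested.

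**Figure D2:**
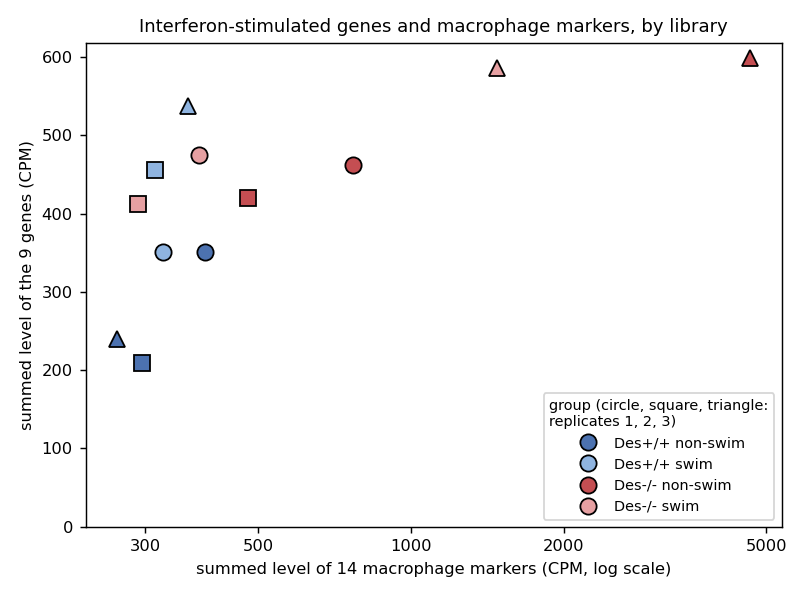
Summed level of the 9 genes (vertical axis, CPM) against the summed level of 14 macrophage markers (horizontal axis, CPM, log scale), 1 point per library, with colour for the group and shape for the replicate. Replicate 3 of the Des-/- non-swim group (4649 CPM of markers) has the highest sum of the 9 genes (599 CPM), and the Des+/+ swim libraries have sums of 351, 455 and 538 CPM at 325, 314 and 364 CPM of markers.

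The genotypes were also compared after swimming. Ifit3 alone of the 9 genes was called, beside 10.6% of all genes tested (5.01% as higher). It was also the 1 gene of the 9 with an unadjusted p under 0.05, beside 30.5% of all genes. It stood at 19.6, 17.0 and 31.7 CPM in Des+/+ and at 53.6, 44.0 and 57.7 CPM in Des-/-, without overlap, as 17.3% of all genes did in this direction, and rose by a log2 change of 1.19 (SE 0.27, edgeR adjusted p = 0.0226). The call was lost without replicate 1 or 2 of the Des+/+ swim group and without replicate 1 or 3 of the Des-/- swim group, with log2 changes of at least 1.02 throughout and an edgeR adjusted p of up to 0.0695. Reads outside exons of the counted strand made up 45.9% to 50.4% of uniquely aligned reads in Des+/+ and 57.2% to 64.5% in Des-/-. These ranges did not overlap, and the part of this in the levels was not tested.

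The other 8 genes overlapped between the genotypes, and their log2 differences lay between -0.27 (Usp18) and 0.38 (Oasl2). The median over the 9 genes was 0.07, beside 0.02 for all genes tested. The 95% intervals of these 8 differences reached from -1.03 at the lowest to 0.97 at the highest, so these data leave single-gene differences of that size undetected. For Ifit2, the gene with the narrowest interval, it ran from -0.44 to 0.39. Irf7 stood at 60.3, 65.7 and 91.4 CPM in Des+/+ and at 74.8, 72.8 and 99.6 CPM in Des-/-, with replicate 3 the highest in each.

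Swimming was then compared with no swimming within each genotype. In Des+/+ cardiomyocytes all 9 genes had a higher mean after swimming, with log2 differences from 0.28 (Ifit3) to 0.98 (Usp18) and a median of 0.82, beside -0.08 for all genes tested. None of the 9 was called by edgeR (adjusted p from 0.115 to 0.587), where 0.0912% of all genes were called. At an unadjusted p under 0.05 there were 6 of the 9, beside 20.5% of all genes. DESeq2 called 5 of them, Ifit2, Irf7, Usp18, Oasl2 and Bst2, beside 7.14% of all genes it tested. The libraries of 5 genes did not overlap between the groups (Ifit1, Irf7, Usp18, Oasl2 and Bst2), and 12.5% of all genes tested lay entirely higher after swimming.

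Bst2, the membrane tether, showed this pattern at the highest level. It went from 72.4, 38.1 and 59.5 CPM without swimming to 80.1, 114 and 132 CPM after swimming, with log2 0.94 (SE 0.27, edgeR adjusted p = 0.115). Oasl2 was at 39.3, 49.6 and 60.3 CPM after swimming, all above the 17.6 to 36.9 CPM without it, with log2 0.91 (edgeR adjusted p = 0.121). The Usp18 libraries were at 13.0, 20.01 and 20.3 CPM after swimming, and replicate 1 exceeded the highest non-swim library by less than 0.1 CPM.

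Replicate 1 was the lowest of the Des+/+ swim libraries for 8 of the 9 genes and the highest of the Des+/+ non-swim libraries for 8 of them, the exceptions being Ifit3 in both groups. The summed level of the 9 genes in replicate 1 was 350 CPM without swimming and 351 CPM after it. Macrophage marker sums in these groups were 264 to 393 CPM and 314 to 364 CPM, and 0 of the 14 markers were called. The 10 cardiomyocyte markers summed to 54277 to 86448 CPM without swimming and to 28275 to 47800 CPM after it, without overlap, with 0 called and a median log2 difference of -0.74. The 10 endothelial markers summed to 6800 to 8491 CPM and to 9114 to 12891 CPM, also without overlap, with 0 called and a median of 0.36. Reads outside exons of the counted strand made up 34.0% to 39.3% of uniquely aligned reads without swimming and 45.9% to 50.4% after it. The part of these shifts in the levels was not tested.

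In Des-/- cardiomyocytes the levels with and without swimming overlapped for all 9 genes, while 10.4% of all genes tested lay entirely higher after swimming. Log2 differences ranged from -0.26 (Isg15) to 0.16 (Bst2), 4 positive and 5 negative, with a median of -0.0026 and adjusted p from 0.769 to 0.995 (edgeR), where 0.0228% of all genes were called. None had an unadjusted p under 0.05 by edgeR, beside 16.7% of all genes, and DESeq2 called 0. The 95% interval was widest for Isg15, from -1.11 to 0.60, and narrowest for Ifit2, from -0.42 to 0.41. Ifit2 was at 65.2, 76.2 and 68.4 CPM without swimming and at 71.7, 63.2 and 74.4 CPM after it.

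The difference between the swimming effects of the genotypes was tested as an interaction. All 9 estimates were negative, from -1.12 (Usp18) to -0.23 (Ifit3), with a median of -0.88 beside 0.03 for all genes tested. None of the 9 was called (edgeR adjusted p from 0.243 to 0.785), and 0% of all genes were. An unadjusted p under 0.05 was found for 5 of the 9 and for 16.3% of all genes, and DESeq2 called 0 of the 9. A different response to swimming in the 2 genotypes was not shown for any of these genes. The genotype comparison without swimming, the swimming comparison in Des+/+ and the interaction all use the same Des+/+ non-swim libraries, in which each of the 9 genes had its lowest mean, so their directions are not independent.

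**Figure D3:**
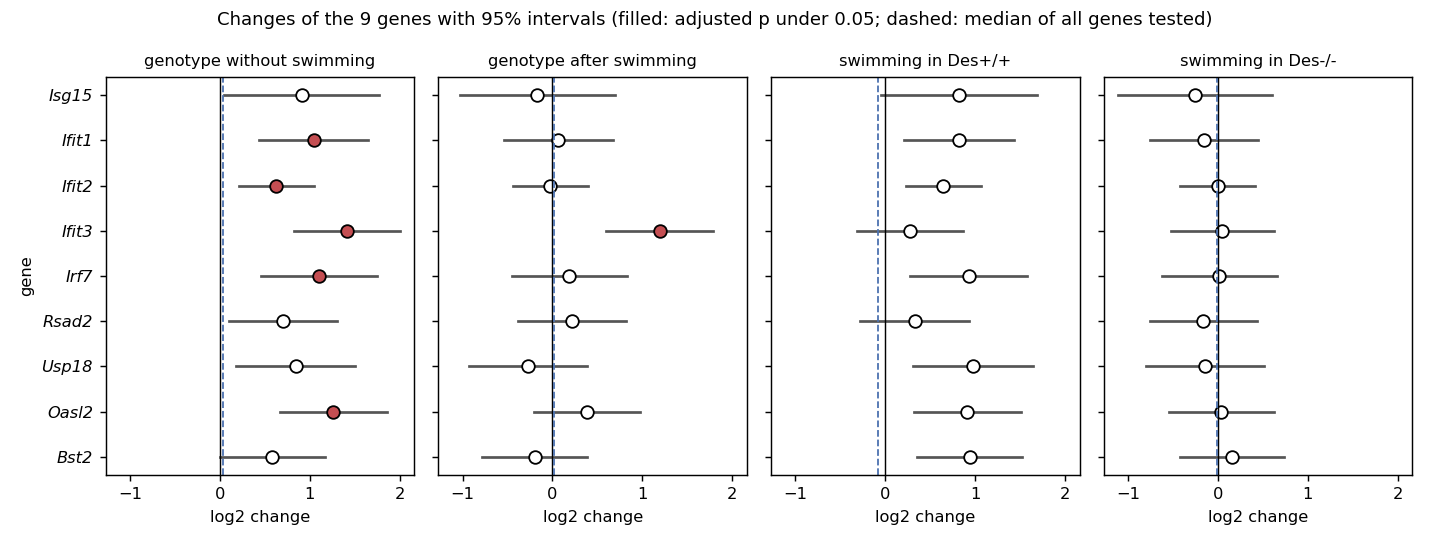
Log2 change of each of the 9 genes with its 95% interval in 4 comparisons; filled points have an adjusted p under 0.05 and the dashed line is the median of all genes tested. In the genotype comparison without swimming 5 points are filled, after swimming Ifit3 alone, and in the swimming comparisons none.

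The other genes of the pathway were examined by their role, from lists that were written with earlier results of these data known. The ligands were near 0. Of 10 interferon genes none could be tested, Ifnb1 and Ifnk had 1 read each over all 12 libraries and Ifng had 2, and the other 7 had none. With 3 counts taken as the floor, this allows up to 0.656 CPM in the shallowest library.

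Of 6 receptor genes, 2 rose and 2 fell in Des-/- without swimming, beside 14% and 18% of all genes. Ifnar1 and Ifnar2, the chains of the type I interferon receptor, had log2 changes of 0.79 (edgeR adjusted p = 0.0209) and 0.40 (edgeR adjusted p = 0.0245), with Ifnar1 at 59.5 to 82.0 CPM in Des+/+ and 105 to 151 CPM in Des-/-. With replicate 3 of Des-/- non-swim left out, neither was called, at log2 0.63 and 0.30. Ifngr2, a chain of the interferon gamma receptor, fell by 1.35 on the log2 scale, from 177 to 217 CPM down to 58.7 to 86.2 CPM (edgeR adjusted p = 0.000852). Il10rb, which serves the type III interferons and interleukin 10, fell by 0.81 (edgeR adjusted p = 0.00673). After swimming, when 5.57% of all genes fell, Ifngr2 fell by 1.17 (edgeR adjusted p = 0.00887) and Ifnar2 rose by 0.42 (edgeR adjusted p = 0.0458).

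Of 12 genes of JAK-STAT signalling and its inhibitors, 3 rose and 1 fell without swimming, beside 14% and 18% of all genes. The genes that rose, Ptpn6, Socs1 and Socs3, all encode inhibitors of cytokine signalling, and Ptpn6 is a phosphatase known mainly from blood cells. Ptpn6 was at 4.78 to 6.13 CPM in Des+/+ and at 10.3, 15.9 and 77.8 CPM in Des-/- (log2 2.62, edgeR adjusted p = 0.0132), and Socs1 had log2 2.13 (edgeR adjusted p = 0.0180). With replicate 3 of Des-/- non-swim left out, these values were 1.22 (edgeR adjusted p = 0.0528) and 0.94 (edgeR adjusted p = 0.0977). Socs3 likewise had 1 library far above the others, at 104, 113 and 479 CPM in Des-/- and 47.0 to 74.4 CPM in Des+/+. Ptpn11, a phosphatase of growth factor signalling, fell by 0.64 (edgeR adjusted p = 0.00596). Stat2 had a log2 difference of 0.39 (edgeR adjusted p = 0.219), and Irf9 0.49 (edgeR adjusted p = 0.101). After swimming 5 of the 12 had a positive difference and none was called as higher, beside 5.01% of all genes. Jak2 fell by 0.69 (edgeR adjusted p = 0.0255) and Ptpn11 by 0.51 (edgeR adjusted p = 0.0409) in Des-/-, beside 5.57% of all genes that fell.

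Of 17 genes of nucleic acid sensing 16 could be tested. Beside 14% and 18% of all genes, 5 of them rose and 1 fell without swimming. They are led by Ikbke, a kinase that activates Irf3 and Irf7, at log2 2.10 (edgeR adjusted p = 0.00726), and by Dhx58, a regulator of the RNA sensors, at log2 1.46 (edgeR adjusted p = 0.0145). With replicate 3 of Des-/- non-swim left out, Ikbke kept its call at log2 1.22 and Dhx58 stood at 1.11 (edgeR adjusted p = 0.0537). Adar, Sting1 and Ifih1 rose and the adaptor Mavs fell, as named to complete the count after their values were seen. Without swimming Sting1 was at 21.5 to 26.5 CPM in Des+/+ and at 30.7, 38.5 and 67.6 CPM in Des-/-. Ikbke rose after swimming too, at 2.28 to 4.49 CPM in Des+/+ and 11.1 to 15.4 CPM in Des-/- (log2 1.99, edgeR adjusted p = 0.0279). Beside 14% and 5.01% of all genes, 2 of 7 further interferon regulatory factors were called as higher without swimming and 0 after it. These were Irf5 (log2 2.47, edgeR adjusted p = 0.0176) and Irf8 (log2 1.83, edgeR adjusted p = 0.0255), both known as factors of myeloid cells. With replicate 3 of Des-/- non-swim left out, they stood at log2 1.33 (edgeR adjusted p = 0.0904) and 0.81 (edgeR adjusted p = 0.140).

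The widest list held 37 other targets of type I interferon in the tables, of which 36 could be tested. Without swimming 34 of the 36 had a positive difference, with a median log2 of 0.62. Beside 14% and 18% of all genes, 13 rose and 1 fell. The number that rose was 7 with replicate 3 of Des-/- non-swim left out, and 5 and 6 without replicates 2 and 3 of the Des+/+ non-swim group, beside 6.84%, 6.4% and 7.1% of all genes called as higher in those fits. The largest changes were those of Oas1g, an oligoadenylate synthetase (log2 2.43, edgeR adjusted p = 0.00924, at no more than 6.30 CPM), and of Ifi207 (log2 1.85, edgeR adjusted p = 0.0337, and log2 0.91 with an edgeR adjusted p of 0.189 when replicate 3 of Des-/- non-swim was left out). Ifit3b, the neighbour that shares sequence with Ifit3, was at 7.78, 7.48 and 6.68 CPM in Des+/+ and at 14.3, 13.8 and 19.6 CPM in Des-/-. Its groups did not overlap, with log2 1.12 (SE 0.20, edgeR adjusted p = 0.00238). Oas2 had log2 0.72 (edgeR adjusted p = 0.0512), and Mx1 was not analysed here.

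After swimming the same list had 1 gene called as higher and 1 as lower in Des-/-, and a median of 0.12. Of all genes tested, 5.01% were called as higher and 5.57% as lower. Uba7, the enzyme that activates Isg15 for attachment, rose by 0.80 (edgeR adjusted p = 0.0278), and Trim25, a ubiquitin ligase of RNA sensing, fell by 0.67 (edgeR adjusted p = 0.0189). Ifit3b was at 11.3 to 16.6 CPM in Des+/+ and 17.9 to 20.5 CPM in Des-/-, a log2 difference of 0.52 (edgeR adjusted p = 0.110) beside the 1.19 of Ifit3. The calls after swimming rested on few libraries: over 12 fits with 1 library omitted in turn, Ifnar2 was called in 2, Ptpn11 in 3, Gbp6 in 4, Jak2 and Ikbke in 6, and Uba7 and Trim25 in 8, whereas Ifngr2 was called in all 12.

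With swimming in Des+/+, 34 of the 36 targets again had a positive difference, with a median log2 of 0.56. Beside 0.0912% of all genes, 1 of them was called. This was Trim25, at 105 to 131 CPM without swimming and 238 to 254 CPM after it, a log2 change of 1.03 (edgeR adjusted p = 0.0233) whose call was lost when any 1 of the 6 Des+/+ libraries, or replicate 2 of Des-/- swim, was left out. DESeq2 called 7 of the list in this comparison. Its share of all genes called, given above with the swimming comparison in Des+/+, was far larger than the 0.0912% of edgeR. The DESeq2 count is to be read against that larger share. Stat2 was at 54.8 to 97.6 CPM without swimming and 135 to 221 CPM after it, a log2 difference of 1.26 (edgeR adjusted p = 0.0570). Irf9, its partner, had 0.79 (edgeR adjusted p = 0.107). With swimming in Des-/- 0 of the 36 were called, beside 0.0228% of all genes, and the median was 0.05.

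**Figure D4:**
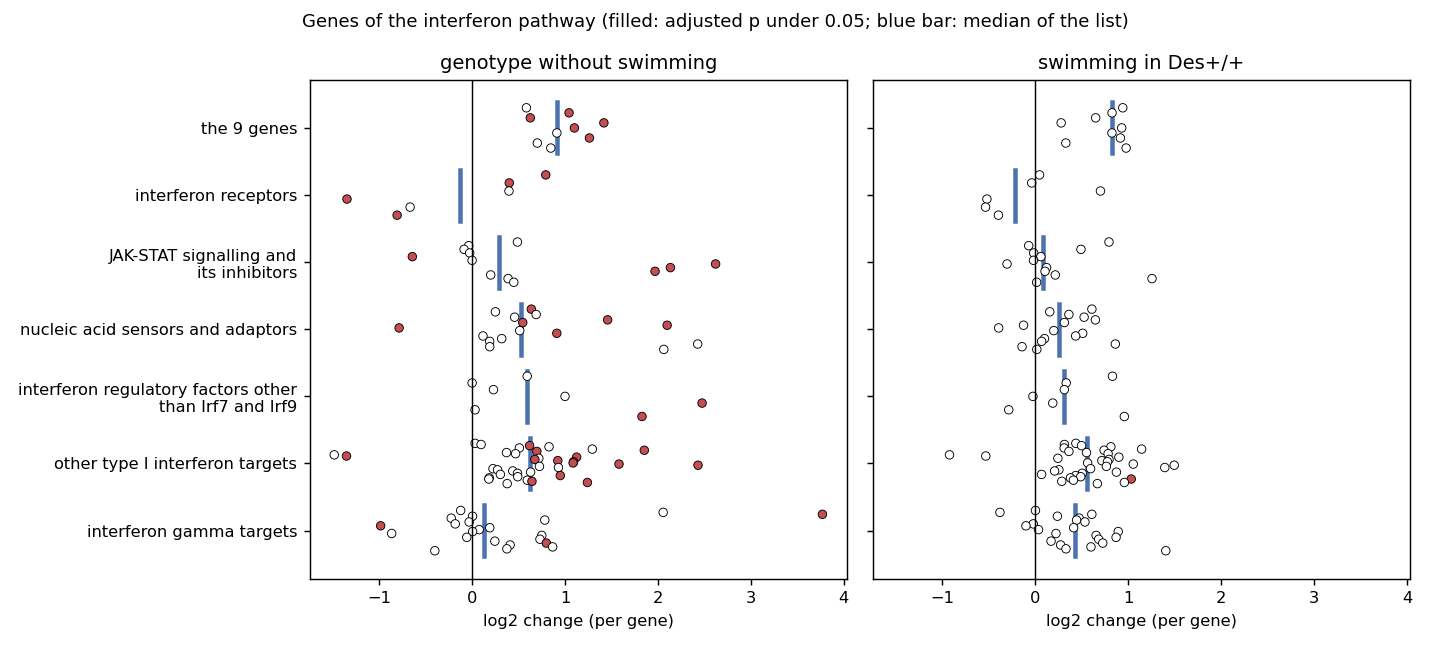
Log2 change of each gene of the pathway lists (1 point per gene, filled at an adjusted p under 0.05; blue bar, median of the list) between genotypes without swimming and with swimming in Des+/+, on the same axis. The 9 genes and the other type I interferon targets lie mostly to the right of 0 in both panels (9 of 9 and 34 of 36 in each), with 5 and 13 filled on the right in the first panel and 0 and 1 in the second.

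Of 22 targets of interferon gamma tested, 2 rose and 1 fell in Des-/- without swimming, with a median log2 of 0.13. Of all genes tested, 14% rose and 18% fell. Cxcl10, a chemokine, stood at 1.06, 2.72 and 39.6 CPM in Des-/- and at 0.467 to 2.00 CPM in Des+/+. Its log2 change of 3.77 (edgeR adjusted p = 0.0277) became 0.83 (edgeR adjusted p = 0.425) without the library at 39.6 CPM, replicate 3. Psmb8, a subunit of the immunoproteasome, rose, and Gbp6, a guanylate-binding protein, fell by 0.99 (edgeR adjusted p = 0.0115) and after swimming by 0.90 (edgeR adjusted p = 0.0422).

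Across the 12 libraries the 9 genes varied together. The Pearson correlation of their log2 CPM had a median of 0.81 over the 36 pairs (0.38 to 0.95), and 0.68 (0.18 to 0.96) after the group means were subtracted. Ifit3 was the least alike, with medians of 0.61 and 0.42 to the other 8. The points share libraries, depth and cell makeup, so these values describe the 12 libraries alone. Among 12158 other genes, those most like the mean of the 9 were Oas1a (r = 0.96), Shisa5 (0.93), Eif2ak2, Plat and Smap1 (each 0.92). After the group means were subtracted they were Irf9 and Rnf138 (each 0.95), Zmpste24 and Kctd12 (each 0.94) and Adss (0.93). Without the 2 libraries farthest from the median, r was 0.71 to 0.90 for the first set and 0.91 to 0.95 for the second. Oas1a and Eif2ak2, an RNA-activated kinase, are themselves type I interferon targets.

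Other cell types were looked for by lists of marker genes. Beside 14% of all genes, 9 of 10 fibroblast markers and 3 of 5 tested lymphocyte markers rose in Des-/- without swimming. So did 1 of 3 tested neutrophil markers and 1 of 2 tested markers of plasmacytoid dendritic cells. Of the last list, whose cells are known for making interferon, only Tcf4 (66980 reads over all 12 libraries) and Runx2 (485 reads) could be tested. Siglech, Ccr9, Spib, Ly6d and Klk1 had too few reads, with 58 for Siglech. Ly6g, a defining neutrophil marker, had 0. Csf3r, the neutrophil marker with the most reads, was at 1.93, 3.40 and 37.3 CPM in the Des-/- non-swim libraries. None of 10 endothelial markers was called, and 1 of 8 mural markers fell, beside 18% of all genes that fell. The part of these cells in the levels of the 9 genes was not tested.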

How the data were processed

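Raw counts of reads per gene were deposited for 12 libraries. Per the study's methods and the submitters' processing notes, the authors aligned 100-base single-end reads to GRCm38 with HISAT2 2.2.1, sorted them with SAMtools 1.13 and counted them with HTSeq in reverse-strand mode, without normalisation. The labels name an unstranded kit and the methods a directional one; of 93 gene pairs on opposite strands with over 3000 reads expected if strand were ignored, 18 held under 1% of that number. Groups came from the labels. The members and gene lists were chosen with earlier results of these data known, and 1 symbol of the sensing list was updated (to Sting1) and 1 duplicate removed after the data were seen.

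In R 4.3.3, edgeR 4.0.16 (TMM, filterByExpr, 13158 genes) was fitted with 4 group means to all 12 libraries, with 5 contrasts and Benjamini-Hochberg adjustment; calls were made where the adjusted p was under 0.05. DESeq2 1.42.0 and the settings in the closing section were alternatives. The script was tested on simulated data. All 9 members passed the filter. SE is the log2 change over the root of F. P-values measure the spread between pools. All members, 8 listed pathway genes (1 of them is not reported here), and the 2 called genes of largest change per list and genotype comparison (mean count of at least 20) are named; others, the rest of the genes counted as rising, were named after their values were seen. Floors cover counting error only. The titles number the replicates and state no pairing, and the main fits use none. In the swimming comparison of Des-/-, deviations of same-numbered libraries correlated at 0.36, 0.32 and 0.60. Replicate 3 held the highest macrophage marker sum in both of these groups.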

Additional observations from a re-analysis of the deposited data

How the results depend on the processing

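The number of the 9 genes called higher without swimming was 5; it ranged from 2 to 8 when single libraries were left out, was 8 with the study's filter on DESeq2 results, and was 4 to 7 in the other settings. After swimming it was 1, and 0 to 1 with single libraries left out. With swimming in Des+/+ it was 0, 5 with DESeq2 and 5 without replicate 3 of both Des-/- groups. Except for the study's filter, these counts and those with the replicate block stand here without the share of all genes called. Where given above, for single libraries and DESeq2, that share moved as well, so the counts alone are no result about the 9 genes. The study's filter uses p without adjustment (0.05 or lower). It also asks for a change of 0.6 or more on the log2 scale in either direction and 20 or more counts on average in the higher group. Of all genes with any read, 23.3% passed it, higher or lower. This share includes low-count genes that could not pass, so it is not a share of the genes edgeR tested. This filter, leaving out those 2 libraries together and the block in 6 libraries were chosen after seeing the data. Ifit3 and Oasl2 kept their calls without swimming in all 12 fits that left out a library and all 9 other settings. Upper-quartile scaling moved the median log2 change of all genes from 0.04 to 0.14 without swimming; the 9 genes had a median of 1.00 there.

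Directions reversed only where differences were uncalled and small. Between genotypes after swimming, Ifit1 was at -0.26 without replicate 3 of both Des-/- groups (-0.27 to 0.27 with single libraries left out), and Ifit2 at 0.0701 with upper-quartile scaling and 0.0107 with the replicate block in 6 libraries (-0.20 to 0.18). With swimming in Des-/-, Ifit2 was at 0.0108 with RLE scaling, 0.0115 with DESeq2, 0.0031 with upper-quartile scaling, 0.00056 in 6 libraries and 0.0017 with the block in 6 libraries (-0.0511 to 0.0636), Irf7 at -0.0025 with no filter on low counts (-0.23 to 0.42), and, without replicate 3 of both Des-/- groups, Rsad2 at 0.0077 and Oasl2 at -0.0533 (-0.20 to 0.18). With single libraries left out, Ifit1 ran from -0.49 to 0.0665, Ifit3 from -0.10 to 0.31, Usp18 from -0.32 to 0.10 and Bst2 from -0.10 to 0.30 in this comparison, Ifit3 from -0.0348 to 0.45 with swimming in Des+/+, and the Ifit3 interaction from -0.40 to 0.0849. The causes were not tested.

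With the replicate block the counts called were 6, 1, 0, 0 and 0 in the 5 comparisons, and 4, 1, 0 and 0 in fits to the 6 libraries compared. Outside the swimming comparison of Des-/-, same-numbered libraries did not all correlate above 0.1, from -0.41 to 0.13. Replicate numbers are not taken as pairs in the main fits. Depth limits the Des-/- swim libraries most.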
